A study of Mus musculus with 6 samples.

Results

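The cytosolic ribosomal proteins are the protein components of the large (60S) and small (40S) subunits of the ribosomes that translate nuclear messages in the cytosol. Members were the protein-coding genes in the table whose mouse symbol is Rpl or Rps followed by a number. After the number the symbol may hold no more than a single letter out of a, x, y and l and a single digit. Rplp0, Rplp1, Rplp2 and Rpsa were added, and the Rps6k kinases, which are not ribosomal proteins, were left out. The rule found 83 genes among the 56305 genes in the table, 51 of the large and 32 of the small subunit. It leaves out genes that encode ribosomal proteins under other names or naming patterns, of which Fau, Rack1 and Rpl36al were followed apart.

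Cells need nearly all ribosomal proteins in equal numbers for each ribosome, and their genes are transcribed at high levels in every tissue. Their messages carry a run of pyrimidines beginning with a C at the 5′ end, the TOP motif, through which the kinase complex mTORC1 and the RNA-binding protein Larp1 control their translation and stability. Rpl and Rps proteins join the ribosomal RNA made by RNA polymerase I in the nucleolus with the help of many assembly factors, and free copies are degraded. In hepatocytes, which secrete large amounts of plasma proteins, ribosomes are abundant.

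The RNA-Seq data compared 3 WT with 3 Vps15LKO male mice aged 5 weeks, which had free access to food and were sampled at ZT6, 6 h after lights on, with 1 liver library for each mouse. Vps15LKO mice are AlbCre+;Vps15 f/f animals, in which Cre driven by the albumin promoter, active in hepatocytes, deletes Vps15, the regulatory subunit of class 3 PI3K encoded by Pik3r4, so that cells that never used this promoter keep the gene. The controls are labelled WT, and the sources used here do not give their alleles further. The comparison asks how liver transcript levels differ after chronic loss of class 3 PI3K in hepatocytes. Between 16137093 and 18110223 reads fell on genes in each library. The values are normalized counts, that is, reads divided by the DESeq2 size factor of the library.

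The size factors, which bear on every direction below, were 0.742 to 0.801 in WT and 1.23 to 1.41 in Vps15LKO livers although the read totals were alike. Scaling the libraries to the same total of reads instead moved the median log2 fold change over every tested gene from -0.02 to 0.70. Pik3r4 had 508, 573 and 460 normalized counts in WT and 341, 362 and 355 in Vps15LKO livers, a log2 fold change of -0.54 (SE 0.11, limma adjusted p = 0.0021) that was 0.19 with equal read totals, and reads on a shortened Vps15 transcript were not counted apart. Bulk RNA holds all cell types of the liver, and fewer cells of a type cannot be told apart from less RNA per cell. The summed normalized counts of 7 hepatocyte markers, among them albumin, ran from 2951020 to 3229260 in WT and from 937245 to 1397942 in Vps15LKO livers, and 5 of the 7 were called lower, where 33% of all tested genes were, and 2 with quantile normalization. In Vps15LKO livers 8 of 9 macrophage, 7 of 7 stellate cell, 5 of 5 cholangiocyte, 5 of 6 tested lymphocyte and 9 of 9 dividing-cell markers were called higher, where 33.5% of all tested genes were, while of 6 endothelial markers 3 were higher and 3 lower. With quantile normalization 2 lymphocyte markers were higher and 1 lower, where 30.4% of all tested genes were higher. The macrophage markers summed to 9290 to 10662 in WT and 31912 to 35334 in Vps15LKO livers, the cholangiocyte markers to 662 to 787 and 11426 to 22425, and no marker was at 0 in all libraries. The part of these cell types in the ribosomal protein values was not tested.

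Ribosomal protein transcripts took up a larger part of the liver messages in Vps15LKO mice. The members received 1.02%, 0.891% and 0.947% of all gene reads in WT and 2.06%, 1.77% and 2.56% in Vps15LKO livers. The genotypes did not overlap, and the third Vps15LKO liver was the highest. The mean share was 0.951% ± 0.063 (SD, n = 3) in WT and 2.13% ± 0.40 (SD, n = 3) in Vps15LKO livers, a ratio of 2.24 (two-sided exact permutation p = 0.1, the smallest p that 3 against 3 allows). Without the third Vps15LKO liver the ratio was 2.01, and without the 10 genes with most reads in the series it was 2.14. A share of reads needs no size factor, but it also moves with every other gene. On the deposited scale the members summed to 239792, 201583 and 205917 normalized counts in WT and to 281749, 258872 and 326896 in Vps15LKO livers.

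The mitochondrial ribosomal proteins, which are encoded in the nucleus and build the separate ribosomes of mitochondria, gave a comparison within each library. These 78 genes took 0.209%, 0.189% and 0.209% of gene reads in WT and 0.225%, 0.224% and 0.247% in Vps15LKO livers. The ratio of cytosolic to mitochondrial ribosomal protein reads was 4.87, 4.72 and 4.54 in WT and 9.13, 7.89 and 10.4 in Vps15LKO livers (two-sided exact permutation p = 0.1, the smallest possible, and 0.167 after Benjamini-Hochberg adjustment over 5 ratios). This ratio is free of the scaling of the libraries, and all 3 Vps15LKO livers lay above all 3 WT livers. Of the mitochondrial ribosomal proteins, 61 of 78 (78.2%, against 33% of all tested genes) were called lower and 1 higher at a median log2 fold change of -0.49 as deposited. With quantile normalization 63 were lower and 1 higher at the same median, where 30.4% of all tested genes were higher and their median was -0.10. With equal read totals 4 (5.13%) were lower and 28 (35.9%) higher at a median of 0.23, where 11.1% of all tested genes were lower and 66.7% higher.

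**Figure D1:**
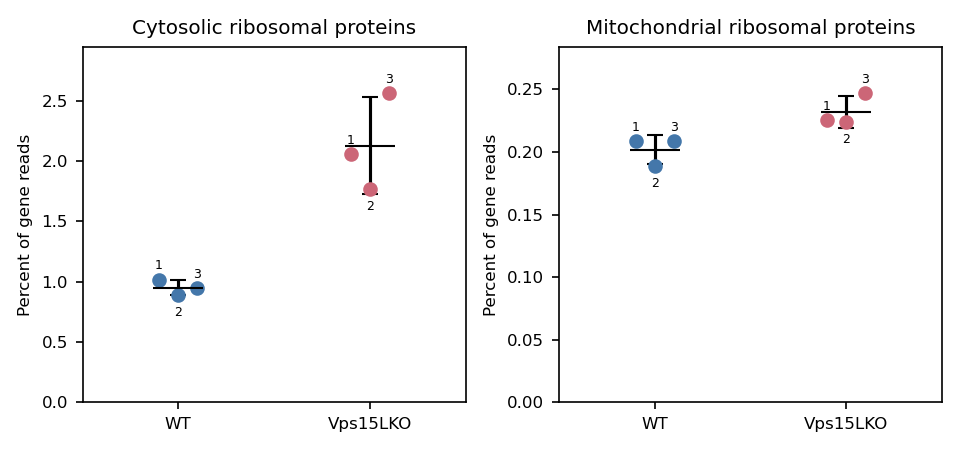
Percent of gene reads on the cytosolic (left) and mitochondrial (right) ribosomal proteins in each of 3 WT and 3 Vps15LKO livers; points are livers numbered by replicate and bars are the mean ± SD. The Vps15LKO livers lie between 1.77% and 2.56% on the left, above the WT livers at 0.891% to 1.02%.

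Gene by gene, 79 members had at least 20 normalized counts in at least 3 livers and were tested. In limma a call required an adjusted p below 0.05 together with a change of 1.2-fold or more. With the deposited scaling 59 of the 79 rose in Vps15LKO livers, 2 fell and 18 were not called, where 33.5% of all 15430 tested genes were called higher and 33% lower. The median log2 fold change of the members was 0.44 (quartiles 0.32 and 0.56, SD across genes 0.25), against a median of -0.02 and an SD of 1.53 for all tested genes. The fold change was above 0 for 74 of the 79, so that the family moved within a narrow range. In 53 members all 3 Vps15LKO livers lay above all 3 WT livers and in 2 they lay below, against 36.4% and 36.8% of all tested genes. The number called higher was smaller without some single livers, and was lowest, at 37, without the second WT liver.

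The 4 members that were not tested were near or at 0: Rpl29 had 5.30, 2.5 and 2.70 normalized counts in WT and 9.16, 15.4 and 7.07 in Vps15LKO livers, Rpl3l and Rpl39l had at most 2 reads in any liver, and Rpl10l had none. Rpl3l, Rpl10l and Rpl39l are paralogues known from muscle and testis. For Rpl29, 50.3% of the 100-base windows of its transcript also occur in transcripts of other genes.

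The size of the rise depended on the scaling, and the sign of the median did not. With equal read totals 79 of 79 members were called higher at a median log2 fold change of 1.17, where 66.7% of all tested genes were higher. With quantile normalization 75 were called higher at a median of 0.95, where 30.4% of all tested genes were higher and the median of all genes was -0.10. TMM scaling gave 61 higher and 1 lower, where 34.8% of all tested genes were higher, and upper-quartile scaling 67 higher and 1 lower, where 37.3% were higher. Upper-quartile scaling over all genes, in place of the tested ones, lowered the count to 39 higher and 3 lower at a median of 0.34, where 30.4% of all tested genes were higher. As deposited 75 of the 79 members stood above the median of all tested genes, and 77 did so under quantile normalization. The other scalings move all genes by about the same amount and so leave this count as it is.

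**Figure D2:**
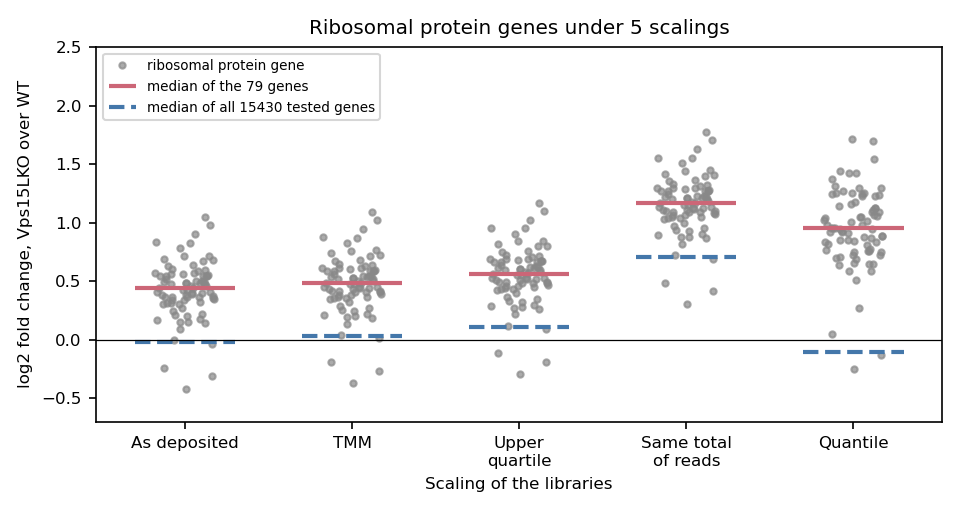
log2 fold change (Vps15LKO over WT) of the 79 tested ribosomal protein genes under 5 scalings of the libraries; grey points are genes, spread sideways at random, red lines their median and dashed blue lines the median of all 15430 tested genes. The red line lies above the blue line under each scaling, from 0.44 as deposited to 1.17 with equal read totals.

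The livers differed from each other in the same way for nearly every member. In WT, the first liver had the highest normalized count of its group in 74 of 79 members. In Vps15LKO livers the third was highest in 76 and the second lowest in 72. The median member lay 0.16 above its group mean (log2) in the first WT liver and 0.18 above it in the third Vps15LKO liver. Members of a liver therefore do not stand for independent measurements, and the count of members called is carried by 3 mice a genotype.

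Both subunits held mostly higher genes. Of 47 tested large-subunit genes 33 rose and 1 fell, at a median log2 fold change of 0.41, and of 32 small-subunit genes 26 rose and 1 fell, at a median of 0.45. The reads on large-subunit genes divided by those on small-subunit genes were 1.48, 1.49 and 1.51 in WT and 1.52, 1.5 and 1.52 in Vps15LKO livers. These ranges overlap (two-sided exact permutation p = 0.2, adjusted p = 0.25 over 5 ratios). The 30 tested members whose annotated gene holds a snoRNA, a small RNA that guides the modification of ribosomal RNA, had 24 higher at a median of 0.48, and the other 49 had 35 higher at a median of 0.43.

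Rpl12 (chr2:32961559-32965345, GRCm38, plus strand), which sits at the base of the stalk where elongation factors bind, rose most on the deposited scale, while under quantile normalization Rplp0 had the higher log2 fold change, 1.72 against 1.69. It had 2607, 2161 and 2364 normalized counts in WT and 4855, 4154 and 5807 in Vps15LKO livers. All Vps15LKO livers lay far above the WT livers, with a log2 fold change of 1.05 (SE 0.14, limma adjusted p = 0.00021). The stalk itself is built by Rplp0, Rplp1 and Rplp2. Rplp0 (chr5:115559467-115563727), often used as a reference gene in quantitative PCR, had 8010, 7300 and 7872 normalized counts in WT and 12019.9, 11231 and 15139 in Vps15LKO livers, a log2 fold change of 0.72 (SE 0.15, limma adjusted p = 0.0023) without overlap. Rplp2 rose by the same log2 fold change of 0.72, and Rplp1 by 0.49.

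Among small-subunit genes Rps12 and Rps19 rose most on the deposited scale, and under quantile normalization, at 1.24 and 1.26, they stood below Rpsa at 1.42 and Rps20 at 1.29. Rps12 (chr10:23785183-23787275) had 857, 693 and 801 normalized counts in WT and 1511, 1318 and 1818 in Vps15LKO livers, a log2 fold change of 0.98 (SE 0.14, limma adjusted p = 0.00027). Rps19 (chr7:24884371-24889806), whose loss of function in humans causes Diamond-Blackfan anaemia, had 1148, 1053 and 1146 in WT and 2083, 1717 and 2526 in Vps15LKO livers, a log2 fold change of 0.90 (SE 0.14, limma adjusted p = 0.00047). In both genes the genotypes were well apart. Rpl39 and Rps20 each rose by 0.83, and Rpl35 by 0.78. Rpl39 lines the tunnel through which the new protein leaves the ribosome, and Rpl35 lies near its exit.

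Rps6, the small-subunit protein that S6 kinase phosphorylates downstream of mTORC1, was not called. Its normalized counts were 4775, 4204 and 3536 in WT and 4566, 4224 and 5015 in Vps15LKO livers, a log2 fold change of 0.15 (SE 0.13, limma adjusted p = 0.35) with overlapping groups. Rpl5 and Rpl11, which together with 5S ribosomal RNA bind Mdm2 when ribosome assembly fails, had log2 fold changes of 0.31 and 0.17, with limma adjusted p = 0.045 for Rpl5 and limma adjusted p = 0.28 for Rpl11. The call of Rpl5 was lost in 11 of 22 alternatives, edgeR, voom and the removal of 4 of the 6 single livers among them, with an adjusted p of up to 0.14, and the difference between the genes was not tested. Rpl13a, a large-subunit protein, rose by 0.60. Rpsa, the laminin receptor precursor of the small subunit, had the most WT reads of the small-subunit members and rose by 0.36 (limma adjusted p = 0.039), a call that was lost in 7 of 22 alternatives, 4 single-liver removals among them, with an adjusted p of up to 0.147. Rps27a, made as a fusion with ubiquitin, ranged from 999 to 1710 in WT and from 1469 to 2797 in Vps15LKO livers, a spread in which its log2 fold change of 0.50 (SE 0.26) was not called.

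**Figure D3:**
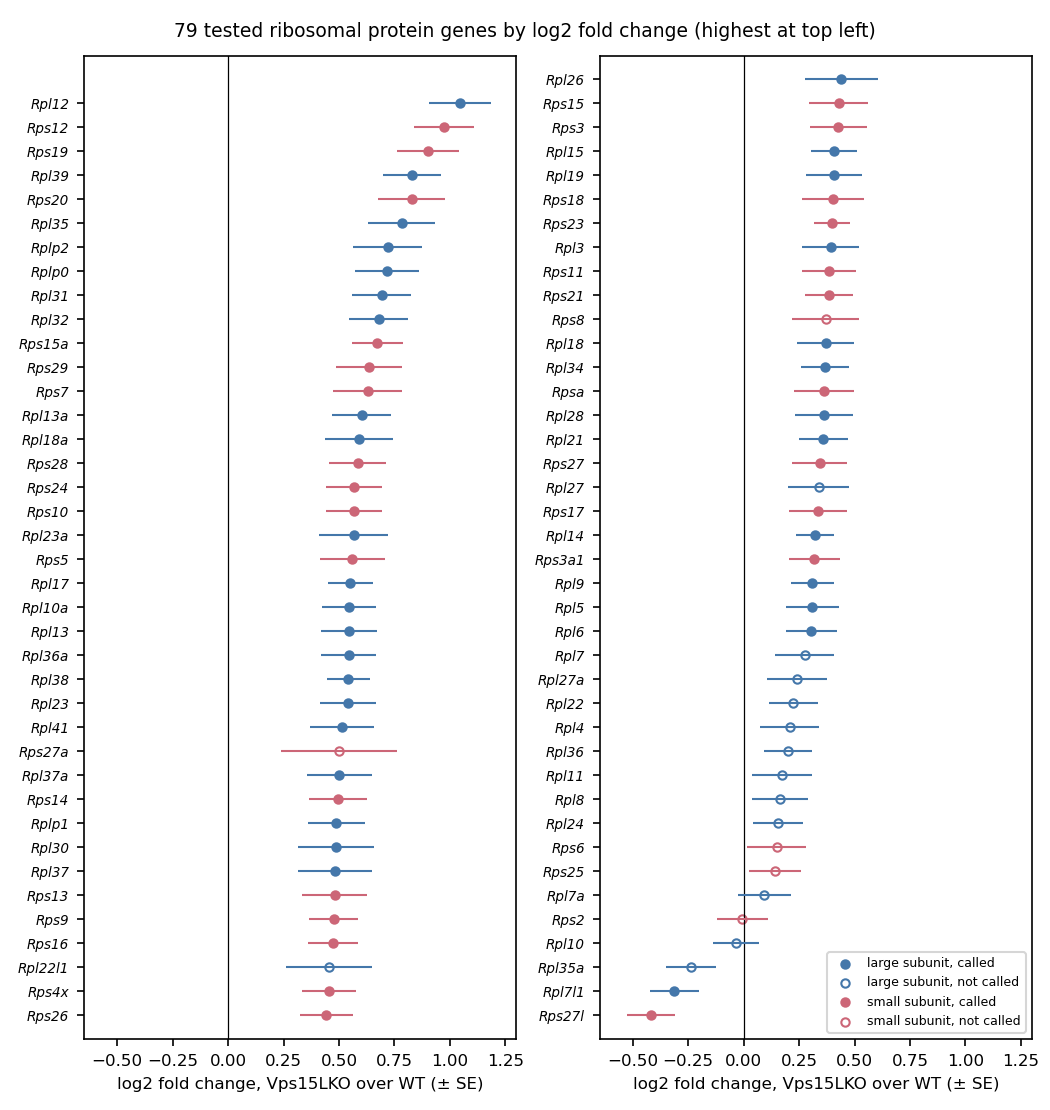
log2 fold change (Vps15LKO over WT, deposited scaling, ± SE) of the 79 tested ribosomal protein genes, ordered from Rpl12 at 1.05 (top left) to Rps27l at -0.42 (bottom right); blue marks the large and red the small subunit, and filled points were called. Most filled points lie right of 0, and 2 lie left of it.

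At the other end stood 2 paralogues. Rps27l (chr9:66946086-66949516) is a p53-induced paralogue of Rps27, and Rpl7l1 (chr17:46773907-46782672) is a paralogue of Rpl7 found in ribosome precursors. Rps27l had 1095, 886 and 918 normalized counts in WT and 675, 737 and 749 in Vps15LKO livers, a log2 fold change of -0.42 (SE 0.11, limma adjusted p = 0.0075) that was 0.31 with equal read totals. Rpl7l1 had 943, 883 and 1099 in WT and 722, 782 and 845 in Vps15LKO livers, a log2 fold change of -0.31 (SE 0.11, limma adjusted p = 0.033) that was 0.41 with equal read totals. Neither gene overlapped between genotypes on the deposited scale. The call of Rpl7l1 was also lost with TMM, upper-quartile and quantile scaling, with no trend and without WT liver 1 or 3 or Vps15LKO liver 1 or 2, where its log2 fold change ran from -0.33 to -0.13, and that of Rps27l was also lost with quantile normalization at -0.25.

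The ratio of each paralogue to its parent within a library does not depend on the scaling. Reads on Rps27l per read on Rps27 were 0.374, 0.383 and 0.362 in WT and 0.201, 0.254 and 0.208 in Vps15LKO livers. Reads on Rpl7l1 per read on Rpl7 were 0.194, 0.217 and 0.275 in WT and 0.149, 0.164 and 0.140 in Vps15LKO livers. For both pairs all Vps15LKO livers lay below all WT livers (two-sided exact permutation p = 0.1 each, the smallest possible, and 0.167 after adjustment over 5 ratios). Rpl22l1 per Rpl22 was 0.118, 0.0943 and 0.160 in WT and 0.166, 0.134 and 0.130 in Vps15LKO livers, which overlap (two-sided exact permutation p = 0.4). Counts of Rps27 are uncertain, since 98.4% of the 100-base windows of its transcript also occur in transcripts of other genes.

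To see the balance among members, every library was scaled to the same sum of member reads and all genes were fitted again. On that scale 5 members were called higher, 4 lower and 70 were not called, where 21.6% of all tested genes were higher and 47.8% lower. Those called higher were Rpl12 at a relative log2 fold change of 0.63, Rps12 at 0.56, Rps19 at 0.48, Rpl39 at 0.41 and Rps20 at 0.41. Without the second WT liver or without the first Vps15LKO liver 2 were called higher, and without the third WT liver 3 were. Those called lower were Rps27l at -0.84, Rpl7l1 at -0.73, Rpl35a at -0.66 and Rpl10 at -0.45.

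Rpl35a and Rpl10 thus lost share within the family without being called on the deposited scale. Rpl35a (chr16:33056453-33060189), another Diamond-Blackfan anaemia gene, had 1465, 1193 and 1294 normalized counts in WT and 1051, 1051 and 1250 in Vps15LKO livers, a log2 fold change of -0.24 (limma adjusted p = 0.093) that was 0.49 with equal read totals. It took 0.610% of member reads in WT and 0.387% in Vps15LKO livers. Rpl10, which is added last to the large subunit, had 5658, 4875 and 5095 normalized counts in WT and 5129, 4835 and 5275 in Vps15LKO livers, a log2 fold change of -0.03 that was 0.69 with equal read totals and 0.72 with quantile normalization. Rps2 stayed near WT as well, at a log2 fold change of -0.01, which was 0.72 with equal read totals and 0.93 with quantile normalization, and its relative change of -0.43 was not called (limma adjusted p = 0.058). Rpl7a had 0.09 and Rps25 0.14, neither called.

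**Figure D4:**
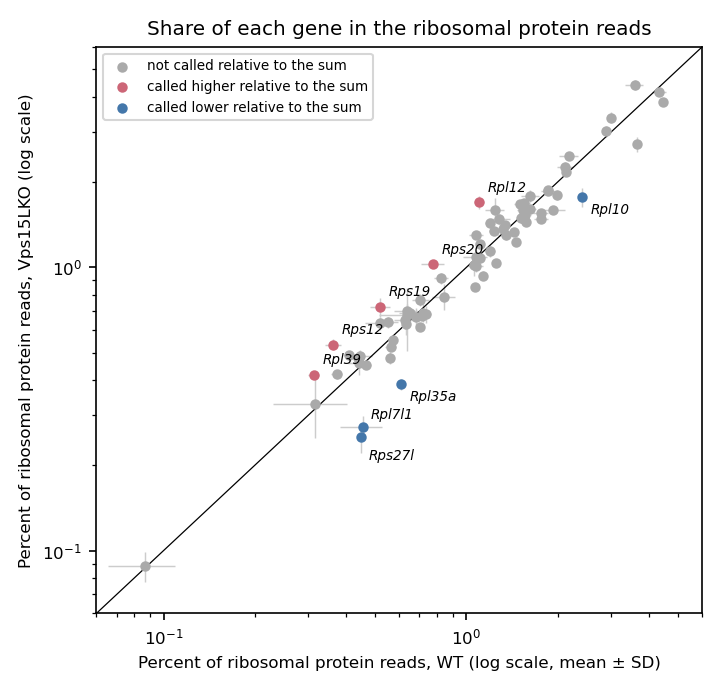
Percent of ribosomal protein reads taken by each of the 79 tested genes in WT (horizontal) and Vps15LKO livers (vertical), both axes logarithmic, points and bars mean ± SD of 3 livers; the line marks equal shares. Of the genes called relative to the sum, Rpl12 and 4 others lie above the line (red) and Rpl35a, Rpl7l1, Rps27l and Rpl10 below it (blue). Genes not called (grey) lie on both sides.

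**Figure D5:**
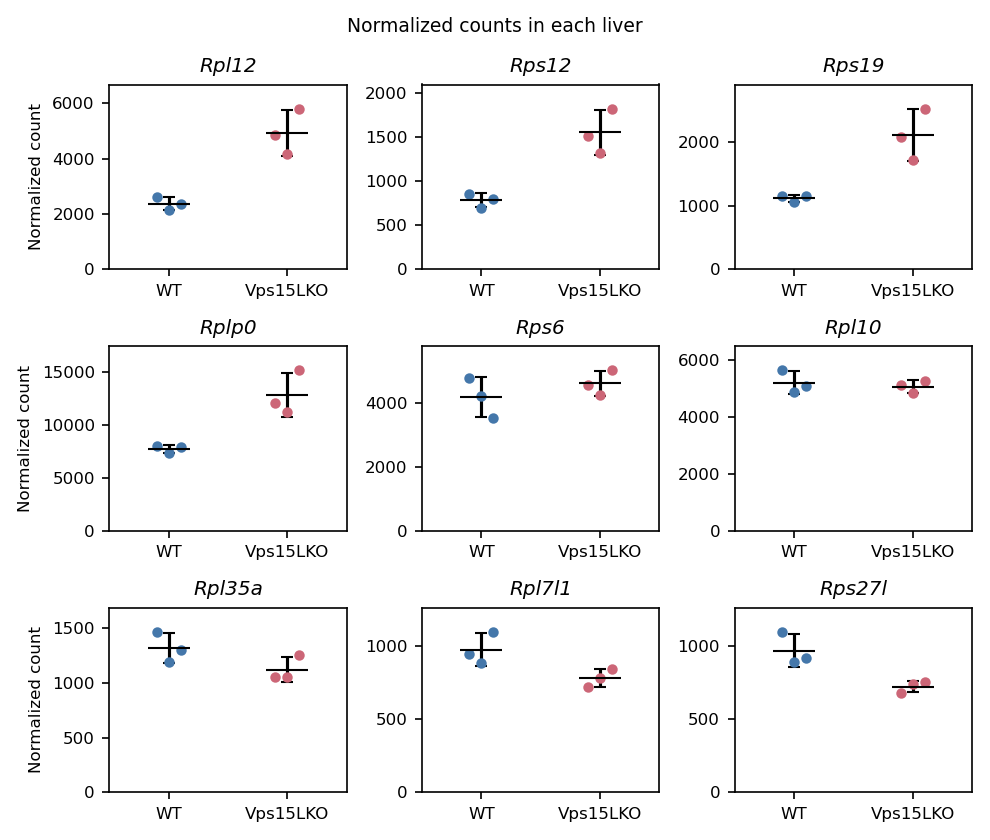
Normalized counts of 9 ribosomal protein genes in each liver, with the mean ± SD of 3 WT (blue) and 3 Vps15LKO livers (red). Rpl12, Rps12, Rps19 and Rplp0 are separated upward, Rps6, Rpl10 and Rpl35a overlap, and Rpl7l1 and Rps27l are separated downward.

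Levels per transcript length spanned a wide range. In WT livers the highest were Rplp1 at 551 RPKM (gene reads scaled by the library total and by the length of the principal coding transcript), Rpl41 at 463, Rps15 at 355, Rps2 at 348 and Rps27 at 331. The lowest were Rps15a at 7.55, Rpl22l1 at 15, Rpl7l1 at 16.6, Rps20 at 19.96 and Rpl15 at 31.3. With the union of exons as the length Rps27 came to 110 and Rpl41 to 173 RPKM, so the order at the top depends on the transcript chosen. At the bottom, the transcripts taken for Rps15a, Rps20 and Rpl15 are long, at 5179, 3706 and 1922 bases. Their mean WT normalized counts were 886, 1682 and 1365, so their low levels per length depend on that choice as well. The order itself was kept between genotypes, with a Spearman rho of 0.96 across the 79 genes, which share libraries and are not independent. Rplp0 moved from rank 10 to rank 5 and Rpl12 from 58 to 36, while Rps2 moved from 4 to 8, Rpl10 from 7 to 15 and Rpl35a from 39 to 62. Across the genes the log2 fold change had a Spearman rho of -0.20 with the WT normalized count and -0.07 with the transcript length.

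Ribosomal protein genes have many processed pseudogenes, whose copies can take or lend reads. Genes named as their pseudogenes, 301 in all, held 4.81 to 5.02 reads for every 100 member reads in WT and 4.74 to 5.08 in Vps15LKO livers, ranges that overlap. Of 27 tested members with at least 50% of their 100-base windows present in transcripts of other genes 17 rose, at a median log2 fold change of 0.37. Of 52 members with a smaller part shared 42 rose and 2 fell, at a median of 0.47. Of the 13 with under 10% of windows shared 8 rose and 2 fell, at a median of 0.38, and those that rose included Rpl39 with 1.75% and Rps20 with 5.91% of windows shared. These percents are taken over the whole transcript and can be low for a long one. Rps20, at 3706 bases, and Rps15a, with 3.03% at 5179 bases, shared 50-base windows with 31 and 39 other genes.

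The 5′ ends of several members, read from RefSeq promoters on GRCm38.p6, show the run of pyrimidines from which the TOP motif takes its name. Promoter sequences of 63 of the 83 members were matched by symbol. Each window below runs from 15 bases before the annotated start to the fifteenth base of the transcript, 5′ to 3′ on the strand of the gene, and capitals mark every run of at least 5 pyrimidines counted from its first C within 10 bases of the start. Rps12, Rpl39 and Rpl12 were chosen among the members with the largest rises on the deposited scale, Rpl13a as a long tract, and Rpl35a, Rps27l and Rpl7l1 as the lower end. The windows lie at chr10:23787195-23787224, chrX:37085208-37085237, chr2:32961697-32961726, chr7:45128731-45128760, chr16:33056467-33056496, chr9:66946071-66946100 and chr17:46782642-46782671 in the order shown.
Rps12: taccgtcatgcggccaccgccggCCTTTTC
Rpl39: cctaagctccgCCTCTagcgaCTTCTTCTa
Rpl12: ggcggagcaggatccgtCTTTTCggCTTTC
Rpl13a: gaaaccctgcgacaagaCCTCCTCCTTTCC
Rpl35a: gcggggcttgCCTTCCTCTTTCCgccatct
Rps27l: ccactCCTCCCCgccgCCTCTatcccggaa
Rpl7l1: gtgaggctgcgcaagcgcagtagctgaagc

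Rpl35a, with a tract of 13 pyrimidines, had a log2 fold change of -0.24 (0.49 with equal read totals), Rpl12, whose longest tract has 6, had 1.05, and Rpl7l1 has none. The tracts of Rps12 and Rpl13a run on past the window to 11 and 14. A tract of at least 5 pyrimidines was found in 61.9% of the 63 members, 37.4% of tested coding genes and 44.9% of mitochondrial ribosomal proteins. One of at least 8 was found in 38.1% of members (24 genes), 10.5% of tested coding genes and 7.25% of mitochondrial ribosomal proteins. The 24 tested members with a tract of at least 8 had 19 higher at a median log2 fold change of 0.43, and the 36 without it had 26 higher and 2 lower at the same median of 0.43. In the 300 bases of the promoter, CCGGAAG, the core bound by ETS factors, was present on either strand in 41.3% of members and 19.3% of tested coding genes. Among mitochondrial ribosomal proteins it was present in 37.7%. CACGTG, the E-box bound by Myc and by the Bmal1-Clock pair, was present in 9.52% of members and 11.5% of tested coding genes, and TATAAA in 11.1% and 9.34%. Each of these was present in 7.25% of mitochondrial ribosomal proteins. Such matches describe the sequence and show no binding.

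Other genes of the ribosome and its supply were read from fixed lists. Among ribosomal protein genes outside the naming rule Rack1, a scaffold on the small subunit, rose by a log2 fold change of 0.55 and Fau, which encodes the small-subunit protein fused to a ubiquitin-like domain, by 0.30. Rpl36al fell by 0.53 on the log2 scale, and had 0.19 with equal read totals. The call of Fau was kept in 17 of 22 alternatives and that of Rpl36al in 19.

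Genes that make ribosomal RNA and assemble ribosomes were called in both directions on the deposited scale, where 33.5% of all tested genes were higher and 33% lower, and mostly higher with equal read totals, where 66.7% were higher and 11.1% lower. Of 17 genes of the RNA polymerase I machinery 6 (35.3%) rose and 2 (11.8%) fell at a median log2 fold change of 0.15, and with equal read totals 16 (94.1%) were higher at a median of 0.87. Taf1c, a subunit of the selectivity factor for ribosomal DNA, rose by 1.47, Tcof1, a nucleolar cofactor, by 0.88 and Taf1a by 0.57, whereas the polymerase subunits Polr1b and Twistnb had -0.39 and -0.35, which were 0.33 and 0.37 with equal read totals. The calls of Polr1b, Taf1a and Twistnb were kept in 15, 19 and 19 of 22 alternatives. Of 70 assembly factors 12 (17.1%) rose and 13 (18.6%) fell at a median of 0.02, and with equal read totals 62 (88.6%) were higher and 1 (1.43%) lower at a median of 0.75. Eif6, which keeps the large subunit from joining early, rose by 1.11, and the snoRNA-binding proteins Nop58 and Gar1 by 0.89 and 0.83. The call of Gar1 was lost with quantile normalization, at 0.42. Tsr1, an assembly factor of the small subunit, had -1.204 and the snoRNP protein Nop10 had -0.80, which was -0.07 and not called with equal read totals. Utp3 had -0.71, which was 0.012 with equal read totals.

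Other genes whose messages also carry a TOP motif, translation factors and genes of other functions together, were mixed on the deposited scale. Of 18 such genes 7 (38.9%) rose and 3 (16.7%) fell, against 33.5% and 33% of all tested genes, at a median log2 fold change of 0.11. With equal read totals 17 (94.4%) were higher at a median of 0.83, where 66.7% of all tested genes were higher, and with quantile normalization 13 were higher and 1 lower at a median of 0.63, where 30.4% were higher. Hnrnpa1, an RNA-binding protein, rose by 1.05, the histone chaperone Nap1l1 by 0.48 and Tpt1 by 0.47. Eif4b, Eif2s3x and Eef1d were called lower at -0.68, -0.41 and -0.27, and with equal read totals they had 0.047, 0.32 and 0.46, and Eef1d had 0.0087 with quantile normalization. The call of Eef1d was kept in 10 of 22 alternatives and that of Tpt1 in 16. Of 27 other initiation factors 10 fell and 17 were not called, at a median of -0.24 as deposited, and 21 (77.8%) were higher at a median of 0.49 with equal read totals, where 66.7% of all tested genes were higher. Eif4a2, an RNA helicase, had -0.95, Eif3j1 -0.89 and Eif5 -0.79, and with equal read totals they had -0.22, -0.17 and -0.06, none of them called.

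A fixed list of genes around mTORC1, which governs translation of TOP messages, was mostly lower on the deposited scale. The list holds activators and inhibitors together, so its counts give no direction for the activity of the complex. Of 18 genes 12 (66.7%) were called lower and 1 higher, where 33% of all tested genes were lower, at a median log2 fold change of -0.43. With equal read totals 4 were lower and 9 (50%) higher at a median of 0.30, where 11.1% of all tested genes were lower and 66.7% higher. The gene that rose was Eif4ebp1, the repressor of cap-dependent translation that mTORC1 inactivates, at 1.09. Its relatives Eif4ebp2 and Eif4ebp3 had -1.17 and -1.42, the mTOR inhibitor Deptor -1.90 and the Eif4a inhibitor Pdcd4 -1.84, all of which were lower with equal read totals as well. Rps6kb1, the S6 kinase, had -0.75, which was -0.03 and not called with equal read totals (limma adjusted p = 0.83). Larp1, which binds the TOP motif, had 4540, 4909 and 4408 normalized counts in WT and 2864, 3233 and 2784 in Vps15LKO livers, a log2 fold change of -0.64 that was 0.083 with equal read totals.

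Several other genes of the list around mTORC1 changed sign with the scaling. Tsc1, Rptor, Larp4, Mtor, Larp4b and Tsc2 were called lower at -0.57, -0.54, -0.48, -0.37, -0.36 and -0.30, and with equal read totals had 0.16, 0.19, 0.24, 0.36, 0.37 and 0.43, and Tsc2 had 0.027 with quantile normalization. The call of Mtor was kept in 11 of 22 alternatives, that of Tsc2 in 16 and that of Larp4b in 18. Akt1s1 at -0.20, Rps6kb2 at -0.15 and Rheb at -0.07 were not called, and with equal read totals they had 0.52, 0.58 and 0.66. Rictor at 0.02 and Mlst8 at 0.33 were not called as deposited, and were higher with equal read totals at 0.75 and 1.06. Of 17 tested genes that act on stalled or surplus ribosomes 9 (52.9%) fell and 1 (5.88%) rose at a median log2 fold change of -0.50, where 33% of all tested genes were lower and 33.5% higher. With equal read totals 2 fell and 8 (47.1%) rose at a median of 0.22, where 11.1% of all tested genes were lower and 66.7% higher. Trip4 had -1.44, the rescue factor Hbs1l -1.36 and the deubiquitinase Usp10 -0.97, while G3bp1, which partners Usp10, rose by 0.47. With equal read totals Trip4 had -0.72, Hbs1l -0.63, Usp10 -0.24 and G3bp1 1.2, and Usp10 was then not called.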

How the data were processed

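RNA from 6 livers was sequenced after polyA enrichment. The authors filtered the reads with SOAPnuke, aligned them to GRCm38 with HISAT2, counted genes with featureCounts and divided by DESeq2 size factors; versions, strand and multi-mapping settings are not given in the sources used here. The deposited values are a signal of this kind, and 100% of them were whole multiples of 1 read within 0.01, so reads were recovered.

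The members and gene lists were chosen with earlier results of these data known. Genes reaching 20 normalized counts in 3 or more livers were fitted as log2(value + 1) in limma 3.58.1 (trend, R 4.3.3), p-values were adjusted over all 15430 by Benjamini-Hochberg, and calls needed an adjusted p below 0.05 with a change of 1.2-fold or more. Fold changes are on the log2(value + 1) scale. edgeR 4.0.16 and DESeq2 1.42.0 on recovered reads were alternatives. Ratios and read shares were compared by exact permutation. Symbols and coordinates come from GENCODE M21, which matched 55227 genes. On simulated counts for 14263 genes, 163 of 200 changed genes were recovered (81.5%) with 1 false call. Named members were the 8 largest rises and 8 lowest fold changes, the 5 highest and 5 lowest levels per length, and a fixed list of paralogues, parents, stalk and other known proteins. Named list genes were the largest called changes and the whole mTORC1 list. Replicates are separate mice. Same-numbered mice did not deviate together across all tested genes. Some results are not reported here.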

Additional observations from a re-analysis of the deposited data

How the results depend on the processing

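Counts, the median and named genes were recomputed under other pseudocounts, filters, scalings, tests and, for calls, fold thresholds, and without each liver. Counts relative to the members' own sum were not refitted with other scalings or tests, and the read share was recomputed over other gene sets and without each liver. Ratios, splits of the members and list counts had no such series of alternatives, apart from equal read totals or quantile normalization for some. The count called higher (59) was 15 at a fold of at least 1.5 and 39 with upper-quartile scaling over all genes, an alternative chosen after seeing the data, and 37 to 60 without single livers. The count called lower (2) was 1 with TMM scaling, upper-quartile scaling or no trend, 0 with equal read totals, quantile normalization or a fold of at least 1.5, and 1 to 3 without single livers. Relative to the members' own sum, the count called higher (5) was 1 at a fold of at least 1.5 and 2 to 6 without single livers. The median log2 fold change (0.44) was 1.17 with equal read totals and 0.95 with quantile normalization. edgeR called 56 members higher and 2 lower, DESeq2 60 and 2, and voom 57 and 2.

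With equal read totals the sign turned for Rps2 (0.72), Rpl10 (0.69), Rpl35a (0.49), Rpl7l1 (0.41), Rps27l (0.31), Rpl36al (0.19), Mtor (0.36), Rptor (0.19), Akt1s1 (0.52), Rheb (0.66), Tsc1 (0.16), Tsc2 (0.43), Rps6kb2 (0.58), Larp1 (0.083), Larp4 (0.24), Larp4b (0.37), Polr1b (0.33), Twistnb (0.37), Utp3 (0.012), Eif4b (0.047), Eif2s3x (0.32) and Eef1d (0.46). With quantile normalization it turned for Rps2 (0.93), Rpl10 (0.72), Tsc2 (0.027) and Eef1d (0.0087). The cause was not tested.

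Same-numbered WT and Vps15LKO livers had correlations of -0.01, -0.01 and 0.05 across all tested genes, which gave no sign that the numbers pair the mice. Across the members they were -0.36, 0.23 and -0.29, and 0.55 for WT liver 1 with Vps15LKO liver 3. A litter or batch shared between mice was not tested. With the replicate number as a block 60 members were called higher and 2 lower. With 3 mice a genotype the exact test cannot go below p = 0.1, and how reads matching several genes were counted is not given in the sources used here, which limits members with shared sequence.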
